A study of Homo sapiens with 12 samples.

Results

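The STAT5 axis was examined in MV4-11 cells, a human acute myeloid leukemia line that carries an internal tandem duplication in the receptor tyrosine kinase FLT3 (FLT3-ITD). The genes were PIM1, PIM2, PIM3, CISH, SOCS1, SOCS2, SOCS3, STAT5A, STAT5B and OSM, which are 10 of the 43876 genes in the table of expression values. They were found by symbol, and each of the 10 had 1 Ensembl identifier. PIM2 was picked for its fall with gilteritinib against mitoxantrone, so its difference in that comparison is given as a description, and nothing is read from counts of calls there. Before RNA was taken, cells spent 24 h in mitoxantrone (20 nM), in gilteritinib (25 nM), in both (Combination, each at 20 nM) or in DMSO, the solvent control. The paper names the first drug mitoxantrone-liposome, and the name in the sample labels is kept here. Mitoxantrone blocks topoisomerase II, and gilteritinib inhibits FLT3. Each condition had 3 libraries, 12 in all, of bulk RNA from this single cell line. The gilteritinib dose in Combination was lower than that given alone, so sums of the single drugs are not at equal doses.

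STAT5A and STAT5B are closely related transcription factors that are phosphorylated by JAK kinases downstream of cytokine receptors, and by FLT3-ITD in leukemia cells. They then pair, enter the nucleus and bind a palindromic element, and the PIM, CISH, SOCS and OSM genes are textbook targets. PIM kinases favour survival and translation, CISH and the SOCS proteins damp cytokine receptor and JAK signaling in a feedback loop, and OSM (oncostatin M) is a secreted cytokine of the interleukin-6 family.

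The core STAT element was searched for as TTCNNNGAA, which reads alike on both strands, in RefSeq windows of 300 bases (GRCh38.p14) from 250 bases before to 50 after each transcript start. Windows were at hand for 8 of the 10 genes, all but SOCS2 and OSM, with 3 starts for STAT5A and 2 for SOCS3. CISH was the only one of the 8 with a match, and it held 4. Over all 35116 windows, 7.66% held at least 1 match and 0.0199% held 4 or more. Of the 27305 genes with a window, 9.38% had a match. The CISH window, chr3:50611725-50612024 on the minus strand, is printed with the 4 matches in capitals because it is the only one in which they occur. The PIM2 window, chrX:48918975-48919274 on the minus strand, is set beside it as the gene picked by its fall with gilteritinib against mitoxantrone.
CISH: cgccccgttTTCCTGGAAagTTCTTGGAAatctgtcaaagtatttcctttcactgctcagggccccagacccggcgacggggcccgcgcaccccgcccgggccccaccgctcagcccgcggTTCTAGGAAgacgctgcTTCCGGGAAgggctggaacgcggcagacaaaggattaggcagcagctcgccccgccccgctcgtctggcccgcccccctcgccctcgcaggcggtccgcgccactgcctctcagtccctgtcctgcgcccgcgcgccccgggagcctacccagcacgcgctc
PIM2: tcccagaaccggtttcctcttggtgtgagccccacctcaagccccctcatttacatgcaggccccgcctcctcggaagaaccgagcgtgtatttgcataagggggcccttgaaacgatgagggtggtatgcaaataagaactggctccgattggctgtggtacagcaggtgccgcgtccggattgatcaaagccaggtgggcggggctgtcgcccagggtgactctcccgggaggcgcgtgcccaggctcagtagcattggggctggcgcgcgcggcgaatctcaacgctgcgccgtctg
The 4 CISH matches read TTCCTGGAA, TTCTTGGAA, TTCTAGGAA and TTCCGGGAA, and begin 241, 230, 129 and 112 bases before the transcript start. A match is only a run of letters, and its absence from the other windows says nothing of sites outside them. The windows of PIM1, PIM3, SOCS3 and STAT5B do not include the start of the gene at the positions given below.

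**Figure D1:**
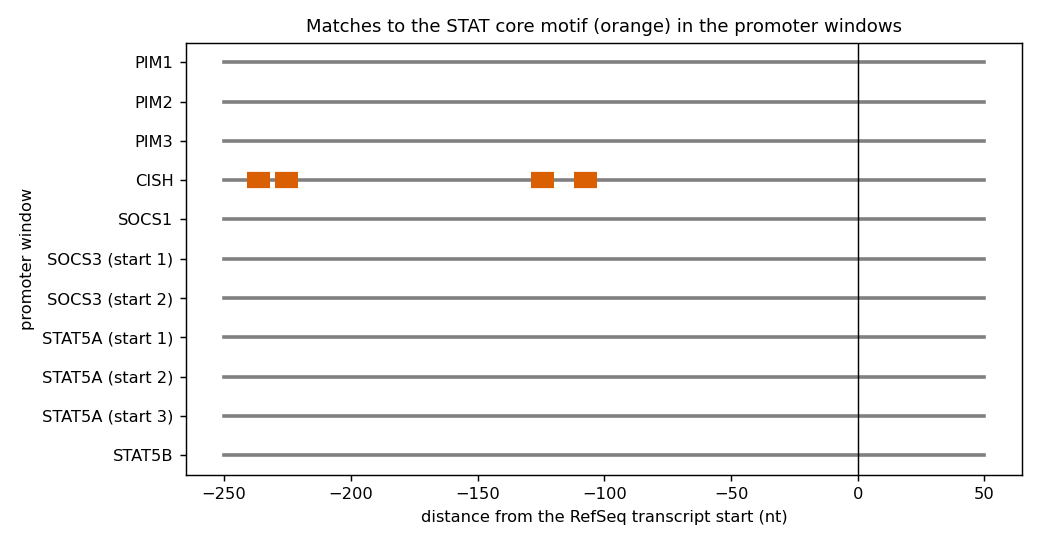
Matches to the STAT core motif (orange) in the 11 RefSeq promoter windows of 8 genes, against the distance from the transcript start in nucleotides (vertical line at 0). The 4 matches lie in the CISH window, beginning 241, 230, 129 and 112 bases before the start, and no other window holds one.

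Values were FPKM, fragments per kilobase of gene scaled to each library's mapped total, as deposited. Depth, recovered from the steps that single fragments make in the FPKM, was 31725015 to 41330653 fragments per library. A member's value rested on 66 fragments at the least (SOCS1, Combination replicate 3) and 10864 at the most (PIM1, Mitoxantrone replicate 3). The replicate 1 libraries stood apart from replicates 2 and 3 in all 4 conditions on the first principal component, which held 41.9% of the variance. Neither the meaning of the replicate numbers nor whether the libraries came from separate cultures is given in the labels, so p-values measure only the spread between these libraries. The 9 myeloid line markers had a summed FPKM of 874 to 1707 over the libraries, and FLT3 had a mean of 156 to 161 FPKM in the 4 conditions. The 12 markers of other cell types (erythroid, lymphoid, stromal, epithelial, endothelial and platelet) summed to 11.6 to 29.1 FPKM, and 9 of them were under 0.1 FPKM in every library. In bulk RNA, fewer cells of a type and less RNA per cell cannot be told apart.

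Differences were tested with limma on log2(FPKM + 1) over the 18574 genes with at least 1 FPKM in at least 3 libraries, which all 10 members passed, and p-values were adjusted over all of these genes. No member passed an adjusted p of 0.05 in any of the 9 comparisons (6 between pairs of conditions, each drug present against absent, and the interaction of the drugs). The share of all genes called was 0.0% in 8 comparisons and 0.00538% (1 gene, MIR4316) in Combination against DMSO. At an unadjusted p under 0.05, SOCS1 was the only member called, in 3 comparisons. It was lower in Combination than in Mitoxantrone, lower in Gilteritinib than in Mitoxantrone, and lower with gilteritinib present than absent. Of all genes, 5.53%, 9.52% and 4.15% had an unadjusted p under 0.05 in these 3 comparisons. The share was 7.9% in Mitoxantrone against DMSO, 1.86% in Gilteritinib against DMSO, 1.67% in Combination against DMSO, 1.63% in Combination against Gilteritinib, 6.38% with mitoxantrone present against absent and 2.91% for the interaction, where 0 members were called.

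Libraries of the same replicate number deviated together (all 18 pairs of same-numbered libraries correlated, r = 0.165 to 0.657). Replicate 2 libraries also correlated with replicate 3 libraries of other conditions (r = 0.11 to 0.43). Some of these pairs exceeded the same-numbered pair and others did not. The data thus set replicate 1 apart but do not settle the matching of numbers 2 and 3. With that limit, libraries were also compared within numbers, with the number as a block in limma. That fit called 0 members in the 8 comparisons other than Gilteritinib against Mitoxantrone, where PIM2 was picked. It called 2 of all genes in Combination against Mitoxantrone (0.0108%; FOS and ARID3B) and 0.0% in the other 7. In Gilteritinib against Mitoxantrone it called 1 member and 0.0269% of all genes, and nothing is read from that count. With the block, unadjusted p was under 0.05 for 0 members in Gilteritinib against DMSO (4.96% of all genes), in Combination against DMSO (4.35%) and in Combination against Gilteritinib (4.39%). In these 3 comparisons no member differed by more than its replicate spread at that level in the block fit. In replicates 2 and 3 only, PIM1, CISH and OSM were higher and PIM3 lower with Gilteritinib than with DMSO at an unadjusted p under 0.05. At that level 806 of the 18574 genes were higher and 1360 lower, and no member passed adjustment.

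The PIM kinases were the most abundant of the 10 genes per length, with means over the 12 libraries of 51.7 FPKM (PIM1), 24.4 (PIM2) and 18.3 (PIM3). PIM1, on chromosome 6 (37170203 to 37175426, plus strand, GRCh38), was at 18.5, 58.9 and 60.005 FPKM in DMSO replicates 1, 2 and 3 and at 27.7, 94.96 and 101 in Mitoxantrone. It was at 7.75, 63.1 and 66.2 in Gilteritinib and at 9.19, 56.8 and 56.4 in Combination. Mitoxantrone was the highest condition at each number, but the condition means overlapped (74.4 ± 40.6 in Mitoxantrone against 45.8 ± 23.6 in DMSO, SD, n = 3) because replicate 1 was far below the other libraries. Within the numbers, the FPKM with Mitoxantrone was 1.49, 1.61 and 1.68 times that with DMSO. The log2 difference was 0.66 ± 0.92 (SE; limma, adjusted p = 0.94), or ± 0.24 with the block (adjusted p = 0.24).

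PIM2, on chromosome X (48913182 to 48919024, minus strand), was at 14.9, 26.2 and 25.1 FPKM in DMSO, and at 20.6, 37.2 and 37.5 in Mitoxantrone. It was at 13.0, 25.4 and 25.9 in Gilteritinib and at 15.2, 25.9 and 25.9 in Combination. Gilteritinib minus Mitoxantrone was -0.63, -0.53 and -0.52 on the log2 scale at numbers 1, 2 and 3, which is the difference the gene was picked for. Against DMSO, which played no part in that choice although the Mitoxantrone libraries did, PIM2 with Mitoxantrone was 1.38, 1.42 and 1.496 times as high, a log2 difference of 0.50 ± 0.34 (SE; limma, adjusted p = 0.80), or ± 0.056 with the block (adjusted p = 0.074). Combination minus Mitoxantrone was -0.41, -0.51 and -0.52, with a limma adjusted p of 0.96, and 0.051 with the block.

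PIM3, which is the third kinase of the family, did not share this pattern. On chromosome 22 (49960513 to 49964080, plus strand), it was at 16.3, 21.6 and 23.1 FPKM in DMSO and at 18.1, 19.2 and 16.7 in Mitoxantrone. It lay between 16.5 and 18.1 in the 6 libraries with gilteritinib. DMSO replicates 2 and 3 were the highest of the 12 libraries and DMSO replicate 1 the lowest, so the direction of each drug against DMSO differed between replicate 1 and the others. The 3 PIM genes share no stretch of 75 bases in their annotated transcripts, so reads of that length separate them.

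CISH (cytokine-inducible SH2 protein), on chromosome 3 (50606490 to 50611831, minus strand) and the gene with the 4 motif matches, was at 7.35, 10.9 and 10.5 FPKM in DMSO, and at 11.5, 17.1 and 17.4 in Mitoxantrone. It was at 5.48, 13.6 and 12.9 in Gilteritinib and at 6.46, 11.7 and 11.0 in Combination. The ratio of Mitoxantrone to DMSO was 1.57, 1.57 and 1.65 at the 3 numbers, so the libraries of each number gave nearly the same ratio. The log2 difference was 0.62 ± 0.32 (SE; limma, adjusted p = 0.69), or ± 0.12 with the block (adjusted p = 0.11). Combination minus Mitoxantrone was -0.75, -0.51 and -0.62 on the log2 scale (limma, adjusted p = 0.91, and 0.14 with the block). Exons of CISH and of MAPKAPK3 on the opposite strand overlap by 218 bases, and the library kit does not mark strand. MAPKAPK3 was at 42.9 to 51.8 FPKM, so a part of its fragments cannot be told from those of CISH.

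SOCS3, an inhibitor that acts on JAK kinases and cytokine receptors, lies on chromosome 17 (78356778 to 78360077, minus strand). It was at 2.94, 4.49 and 5.29 FPKM in DMSO, and at 4.21, 7.64 and 8.13 in Mitoxantrone. It was at 2.86, 5.32 and 5.45 in Gilteritinib and at 3.06, 4.18 and 5.17 in Combination. Mitoxantrone was highest at each number, 1.43, 1.70 and 1.54 times DMSO. The log2 difference was 0.53 ± 0.28 (SE; limma, adjusted p = 0.70), or ± 0.088 with the block (adjusted p = 0.086).

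OSM, on chromosome 22 (30262829 to 30266840, minus strand), was at 2.95, 4.61 and 4.83 FPKM in DMSO, and at 3.32, 8.16 and 8.08 in Mitoxantrone. It was at 2.56, 5.67 and 6.799 in Gilteritinib and at 2.45, 4.84 and 5.03 in Combination. The ratio of Mitoxantrone to DMSO was 1.13 in replicate 1 and 1.77 and 1.67 in replicates 2 and 3, so replicate 1 showed the direction but little of the size. The log2 difference was 0.49 ± 0.37 (SE; limma, adjusted p = 0.83), or ± 0.12 with the block (adjusted p = 0.14).

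SOCS1 and SOCS2 did not follow the same order of conditions. SOCS1, an inhibitor of JAK kinases on chromosome 16 (11254405 to 11256200, minus strand), was the least abundant member. It was at 1.62, 1.36 and 2.06 FPKM in DMSO, at 2.42, 1.96 and 1.95 in Mitoxantrone, at 0.963, 1.16 and 1.73 in Gilteritinib and at 1.67, 1.48 and 1.07 in Combination. All 3 Mitoxantrone libraries were above all 6 libraries that had gilteritinib, and only DMSO overlapped them. Combination minus Mitoxantrone was -0.37 ± 0.16 on the log2 scale (SE; limma, adjusted p = 0.89), on 66 to 174 fragments a library. SOCS2, best known for damping growth hormone signaling, lies on chromosome 12 (93569814 to 93583487, plus strand) and was at 8.35, 9.03 and 9.10 FPKM in DMSO and 8.12, 9.62 and 8.63 in Mitoxantrone. With gilteritinib it ranged from 6.52 to 9.19, and the replicate 1 libraries of Gilteritinib (6.88) and Combination (6.52) were the lowest. Its exons overlap those of SOCS2-AS1 on the opposite strand by 277 bases, and SOCS2-AS1 was at 0.808 to 1.31 FPKM.

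The transcription factors themselves differed little. STAT5A, on chromosome 17 (42287547 to 42311943, plus strand), was at 5.01, 6.16 and 6.09 FPKM in DMSO, at 7.74, 6.50 and 6.45 in Mitoxantrone, at 6.26, 5.55 and 5.58 in Gilteritinib and at 7.22, 5.61 and 5.44 in Combination. In replicates 2 and 3 Mitoxantrone was 0.067 and 0.073 above DMSO on the log2 scale, and in replicate 1 it was 0.54 above. DMSO replicate 1 was the lowest and Mitoxantrone replicate 1 the highest of the 12 libraries. STAT5B, its neighbor on chromosome 17 (42199168 to 42276707, minus strand), was the more abundant (mean of 11.9 against 6.13 FPKM) and ranged from 9.72 to 13.3 FPKM over the 12 libraries, with condition means of 11.6 ± 1.67 in DMSO, 12.4 ± 1.24 in Mitoxantrone, 11.7 ± 1.24 in Gilteritinib and 11.9 ± 1.04 in Combination (SD, n = 3). Mitoxantrone minus DMSO was 0.10 ± 0.12 for STAT5B on the log2 scale (SE; limma, adjusted p = 0.93). The paralogs share 7.06% of the 75-base stretches of STAT5A and 6.46% of those of STAT5B, so a part of their fragments could be assigned to either.

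**Figure D2:**
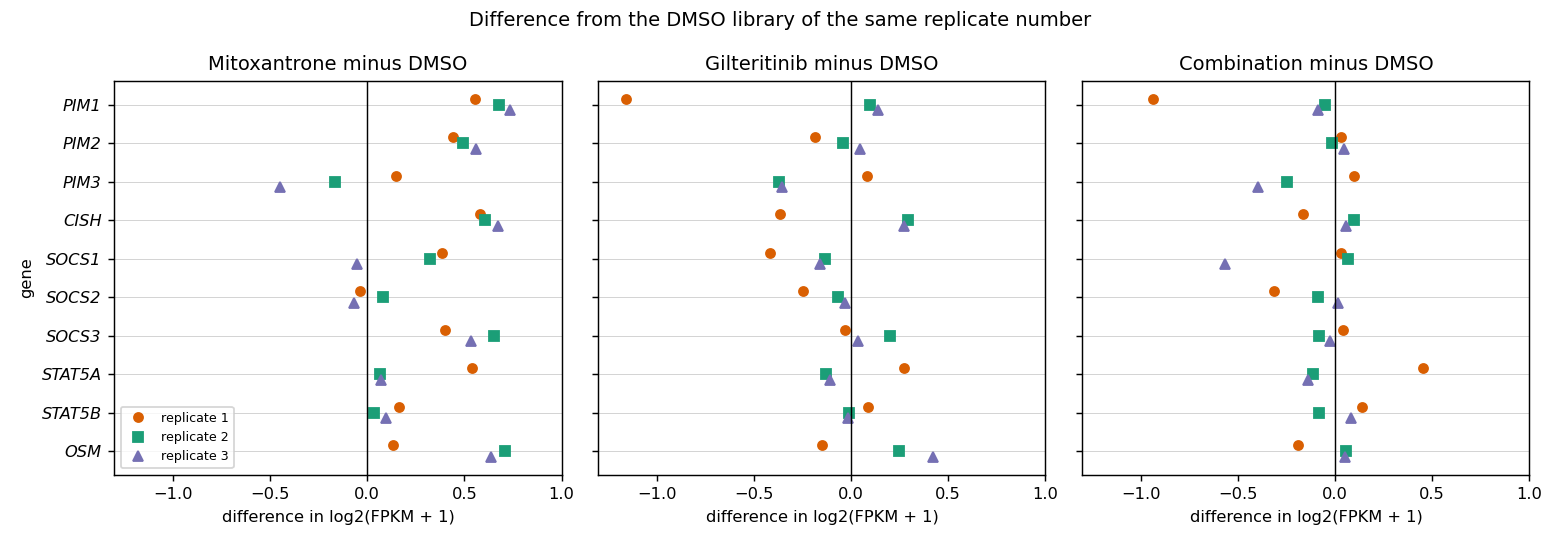
Difference in log2(FPKM + 1) from the DMSO library of the same replicate number for each gene (rows) with Mitoxantrone, Gilteritinib and Combination (panels), 1 point per replicate number. With Mitoxantrone 7 of the 10 genes are above 0 at all 3 numbers (5 after median-ratio scaling, without STAT5A and STAT5B), and with Gilteritinib or Combination none is, apart from SOCS3 with Gilteritinib after that scaling.

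The levels of 7 members (PIM1, PIM2, CISH, SOCS3, STAT5A, STAT5B and OSM) were higher with Mitoxantrone than with DMSO at each of the 3 replicate numbers, where 20.5% of all genes were. The same 7 were at their highest with Mitoxantrone at each number, against 8.67% of all genes. After median-ratio scaling, STAT5A and STAT5B were no longer higher at number 2, and PIM1, PIM2, CISH, SOCS3 and OSM kept both properties (5 of 10, where 15.8% of all genes were higher at each number and 5.36% were highest). The members' median log2 difference from DMSO was 0.36, beside 0.03 over all genes tested. With the block, 5 of the 10 (PIM1, PIM2, CISH, SOCS3 and OSM) had an unadjusted p under 0.05 and were higher, as were 9.45% of all genes. The members were chosen with results of these data known, so these counts describe them and do not test them.

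Of the 9 myeloid line markers, 3 (CD33, MEIS1 and CSF1R) were higher with Mitoxantrone than with DMSO at each number, 0 were lower at each number and 6 were neither, and of the 12 markers of other cell types 2 (HBB and PECAM1) were higher and 0 lower. CSF1R, the receptor for macrophage colony-stimulating factor, was at 11.4, 22.4 and 20.9 FPKM in DMSO and 18.3, 40.6 and 41.1 in Mitoxantrone, and in Combination it was at 17.7, 24.6 and 24.8. PECAM1, which monocytes and endothelial cells share, was at 9.17, 14.1 and 14.4 FPKM in DMSO and 9.75, 25.1 and 24.8 in Mitoxantrone. HBB, a globin of erythroid cells, was at 0.0, 1.14 and 1.37 FPKM in DMSO and 1.05, 1.71 and 2.85 in Mitoxantrone. SPI1, a transcription factor of myeloid cells, was at 85.6, 76.97 and 108 FPKM in DMSO and 107, 67.7 and 59.8 in Mitoxantrone. The 12 markers of other cell types summed to 11.6 to 17.6 FPKM in DMSO and 13.7 to 29.1 in Mitoxantrone, and 9 of the 12 were under 0.1 FPKM in every library of both. The part of these markers in the members' differences was not tested.

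With Combination, 8 members (those 7 and SOCS1) were lower than with Mitoxantrone at each number, as were 21.7% of all genes (7 members and 15.3% of all genes after median-ratio scaling, without STAT5B), and the median log2 difference was -0.43 beside -0.04 over all genes. An unadjusted p under 0.05 with the block was reached by 6 (PIM1, PIM2, CISH, SOCS1, SOCS3 and OSM), all lower, as by 8.58% of all genes. The comparison shares its Mitoxantrone libraries with the one above. In Gilteritinib against Mitoxantrone the same 8 members were lower at each number (28.8% of all genes) and the same 6 had an unadjusted p under 0.05 (12.5% of all genes), and nothing is read from these counts, since PIM2 was picked there.

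Neither Gilteritinib nor Combination gave values that stood below DMSO in the group. SOCS1 and SOCS2 were lower with Gilteritinib than with DMSO at each number (2 of 10, where 16.6% of all genes were), and PIM1 with Combination (1 of 10, where 13.6% were). After median-ratio scaling SOCS1 remained so (9.52% of all genes), SOCS2 did not, and PIM1 remained lower with Combination (2234 of the 18574 genes). SOCS3 was then higher with Gilteritinib than with DMSO at each number (0.053, 0.17 and 0.11 on the log2 scale), as were 15.2% of all genes. The median log2 difference of the 10 members from DMSO was -0.02 with Gilteritinib and -0.03 with Combination, beside -0.03 and -0.01 over all genes. Replicate 1 and the other replicates differed in sign for several genes. Gilteritinib minus DMSO was -1.16, 0.10 and 0.14 on the log2 scale for PIM1 at numbers 1, 2 and 3. It was -0.365, 0.29 and 0.27 for CISH and -0.15, 0.25 and 0.42 for OSM.

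Whether mitoxantrone acted alike with and without gilteritinib was tested by the interaction, the log2 difference of Combination from Gilteritinib less that of Mitoxantrone from DMSO. It was -0.71 ± 1.31 for PIM1, -0.42 ± 0.47 for PIM2, -0.69 ± 0.45 for CISH, -0.62 ± 0.40 for SOCS3 and -0.69 ± 0.52 for OSM (SE; limma, adjusted p = 0.9997 for each). The value was below 0 at each replicate number in 7 of the 10 members (these 5, STAT5A and STAT5B), as in 14.9% of all genes, and after median-ratio scaling in the 5 alone (14.5% of all genes). With the block, 4 of the 10 members (PIM2, CISH, SOCS3 and OSM) had an unadjusted p under 0.05 and were below 0, as were 3.84% of all genes, and their limma adjusted p was 0.52. The median over the 10 members was -0.29, beside -0.01 over all genes. The interaction holds the Mitoxantrone and Gilteritinib libraries by which PIM2 was picked, so these counts describe the members and do not test them.

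Since replicate 1 stood apart, the members were also tested in replicates 2 and 3 only, which leaves 2 libraries per condition. These libraries lay close together. The SE of PIM1 in Mitoxantrone against DMSO was 0.040, beside 0.92 in all 12 libraries. Whether they came from separate cultures is not given, so these p-values measure only the spread between replicates 2 and 3. In these replicates, PIM1, PIM2, CISH, SOCS3 and OSM rose with Mitoxantrone against DMSO (limma, adjusted p = 0.00071, 0.0011, 0.0022, 0.032 and 0.011), as did 3.08% of all genes. The same 5 members fell in Combination against Mitoxantrone (limma, adjusted p = 0.00058, 0.0013, 0.0036, 0.026 and 0.015), as did 3.51% of all genes. On average, PIM1 was lower with gilteritinib present (2.09% of all genes) and higher with mitoxantrone present (0.948% of all genes). In these replicates the sign of the PIM1 difference with each drug changed with the other drug, but not all of these differences were called. Gilteritinib minus DMSO was 0.12 (limma, adjusted p = 0.33) and Combination minus Gilteritinib was -0.19 (limma, adjusted p = 0.36) on the log2 scale. In replicate 1 these 2 differences had the opposite signs (-1.16 and 0.22). Mitoxantrone minus DMSO was 0.71 and Combination minus Mitoxantrone was -0.78. The contrasts of a drug present against absent hold the Gilteritinib and Mitoxantrone libraries by which PIM2 was picked. Its tests in those contrasts are not given. In Gilteritinib against Mitoxantrone 3 members passed, as did 3.98% of all genes in the same direction (lower), and again nothing is read from the count. The interaction was below 0 for PIM1, PIM2, CISH and OSM (limma, adjusted p = 0.0018, 0.0057, 0.0039 and 0.016), as for 1.27% of all genes. All members were chosen with results of these data known, and replicate 1 was left out because it was seen to stand apart. The p-values in this paragraph therefore describe the members and do not test them. For PIM2, the Mitoxantrone libraries themselves took part in the choice. Within replicate 1 there is 1 library per condition and no test, and its values are those given for each gene above.

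The whole fragments recovered from the FPKM were tested as counts by limma's voom with the replicate block. PIM2, CISH, SOCS3 and OSM rose with Mitoxantrone against DMSO (adjusted p = 0.0082, 0.021, 0.016 and 0.046), as did 1.24% of all genes, and PIM1 did not pass (adjusted p = 0.11). PIM2, CISH and SOCS3 fell in Combination against Mitoxantrone (voom, adjusted p = 0.0098, 0.025 and 0.019), as did 0.727% of all genes. The members were chosen with results of these data known, PIM2 by its Mitoxantrone and Gilteritinib libraries, and voom was added once the data had been seen. The p-values here therefore describe the members and do not test them. In Gilteritinib against Mitoxantrone 4 members passed and 2.92% of all genes were lower and passed, and with mitoxantrone present 1 member (0.415% of all genes were higher and passed), counts that include PIM2 and are not read. Without the block, voom called 0 members and 0 of all genes in each of the 9 comparisons.

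The correlation between members was described over the 12 libraries after each replicate number was centred. PIM1, PIM2, CISH, SOCS3 and OSM correlated with one another at r = 0.73 to 0.93, the highest pair being PIM2 with SOCS3 and the lowest PIM1 with OSM. SOCS1 correlated with them at 0.51 (OSM) to 0.74 (PIM1) and SOCS2 at 0.31 (SOCS3) to 0.71 (PIM1), so the group has no sharp edge. STAT5A and STAT5B correlated at 0.78, and PIM3 at -0.38 to 0.38 with the other members. The points share 4 conditions and 3 replicate numbers, so they are not 12 independent samples. Among all genes with a mean FPKM of at least 5, the profiles most like that of PIM2 were SREBF2 (r = 0.99), MYADM (0.98) and BCL2L11 (0.97). Those most like CISH were ARRB1 (0.98), SYVN1 (0.98) and PIM1 (0.92), and those most like PIM1 included LRRC8D-DT and FASN (both 0.96) with a gene that has only an Ensembl identifier. For SOCS3 they included SLC26A6 and AACS (both 0.97), again with a gene named only by its identifier, and for OSM they included PTPN7 (0.96) and TMEM97 (0.94). For STAT5A they were SEPTIN9 (0.99), APOBEC3G (0.97) and TOLLIP (0.96), and for STAT5B EAF1 (0.97), P4HB (0.90) and CD300C (0.90). SOCS1 was most like MAPK3 (0.94), FBRS (0.93) and EHBP1L1 (0.93), and SOCS2 was like DESI1 (0.90) and DNAJA4 (0.87) besides a gene with no symbol. PIM3 was most like RNA5-8SN2, a ribosomal RNA gene (0.96), RASAL3 (0.95) and TESC (0.93).

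Upstream of STAT5, 18 of 22 listed receptors, JAK and SRC family kinases, adaptors and other STAT genes were tested. Of these, 0 passed an adjusted p of 0.05 in any of the 9 comparisons, with or without the block (limma). With the block and an unadjusted p under 0.05, 7 were higher with Mitoxantrone than with DMSO (among them JAK3, TYK2, STAT2, STAT3, STAT6 and FES), as were 9.45% of all genes, and the median log2 difference was 0.12 beside 0.03 over all genes. With gilteritinib present against absent, the smallest p-values were those of CSF2RB, the shared beta chain of the interleukin-3 and GM-CSF receptors, and of STAT3. CSF2RB was at 8.58, 8.36 and 8.07 FPKM in DMSO, 12.2, 8.68 and 8.31 in Mitoxantrone, 7.80, 7.48 and 7.32 in Gilteritinib and 9.31, 7.86 and 7.10 in Combination, and its log2 difference was -0.18 ± 0.094 (SE; limma, adjusted p = 0.9999). STAT3 had means of 14.6 ± 2.43 FPKM in DMSO, 18.3 ± 0.922 in Mitoxantrone, 14.1 ± 0.958 in Gilteritinib and 15.7 ± 0.761 in Combination (SD, n = 3). Its 3 Mitoxantrone libraries were above the other 9.

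Of 17 listed negative regulators (phosphatases, PIAS proteins, CBL ligases and the remaining SOCS genes) 16 were tested, and 0 passed an adjusted p of 0.05 in any comparison (limma, with or without the block). With Mitoxantrone against DMSO, PTPN6 and SH2B3 were higher at an unadjusted p under 0.05 with the block (2 of 16, beside 9.45% of all genes), and the median log2 difference of the list was 0.08 beside 0.03 over all genes. At the same level PTPN6, 1 of the 16, was lower with Combination than with Mitoxantrone (8.58% of all genes) and below 0 for the interaction (3.84%). Its means were 119 ± 17.9 FPKM in DMSO, 142 ± 25.0 in Mitoxantrone, 119 ± 18.2 in Gilteritinib and 118 ± 9.82 in Combination (SD, n = 3). PIAS3 and INPP5D had the smallest p-values with gilteritinib present against absent, with log2 differences of -0.09 ± 0.076 and -0.11 ± 0.10 (SE; limma, adjusted p = 0.9999 for both).

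Of 19 other genes known to respond to STAT5, 12 were tested, and 0 passed an adjusted p of 0.05 in any comparison (limma, with or without the block). With the block and an unadjusted p under 0.05, MCL1, CCND2, ID2 and DUSP5 were higher with Mitoxantrone than with DMSO, where 9.45% of all genes were. The same 4 were lower with Combination than with Mitoxantrone, where 8.58% of all genes were, and CDK6 was higher. The comparisons share the Mitoxantrone libraries. The median log2 differences of the list were 0.11 and -0.08, beside 0.03 and -0.04 over all genes. ID1 and DUSP5 had the smallest p-values with gilteritinib present against absent. DUSP5, a phosphatase that acts on ERK, was at 2.14, 3.06 and 2.89 FPKM in DMSO, 2.42, 6.07 and 6.17 in Mitoxantrone, 1.67, 2.94 and 2.98 in Gilteritinib and 1.997, 3.70 and 3.17 in Combination. Its Mitoxantrone library was the highest at each number. ID1, an inhibitor of basic helix-loop-helix factors, was at 5.75 ± 1.93 FPKM in DMSO, 4.92 ± 0.693 in Mitoxantrone, 4.04 ± 0.726 in Gilteritinib and 4.18 ± 0.731 in Combination (SD, n = 3).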

How the data were processed

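The 12 RNA-seq libraries of MV4-11 cells fell into 4 conditions of 3. Libraries were amplified by the Geo-seq method and made with a transposase kit that does not mark strand. The authors deposited FPKM per gene in 1 table, per the labels and the file headers, with no further scaling stated. The submitters' processing notes name Bowtie 0.12.9, Cufflinks 2.1.1, HTSeq, DESeq2 and the mouse build mm10, with no role. The table's identifiers are those of human genes, so the build behind the values is uncertain. Of 43876 identifiers, 40169 matched GENCODE release 29, which gave the GRCh38 positions.

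The members and gene lists were chosen with earlier results of these data known. Genes with at least 1 FPKM in at least 3 libraries (18574) were fitted as log2(FPKM + 1) with limma 3.58.1 (R 4.3.3), with 1 mean per condition over 12 libraries and a trend of variance on mean, and p-values were adjusted by Benjamini and Hochberg per comparison at a threshold of 0.05. Log2 differences on this scale understate those of low genes. The paper names t-tests for a pair of groups, and the fit across genes was used in their place.

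The genes named were all members, the 2 genes of each list with the smallest p with gilteritinib present against absent, the 3 profiles most like each member, and overlapping antisense genes; FOS, ARID3B, MIR4316, the cell type markers and the list genes under an unadjusted p of 0.05 were named with their values in view. A few genes that these rules select are not reported here.

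The pairing by replicate number is not stated by the labels, and the data set only replicate 1 apart. All 18 same-numbered pairs correlated above 0.1, but so did replicate 2 with replicate 3 libraries of other conditions. The replicate block was fitted as an alternative. Other alternatives were a pseudocount of 0.1, no filter, a mean of at least 5 FPKM, median-ratio scaling, no trend, each library left out and replicates 2 and 3 only. Added once the data had been seen was voom on whole fragments recovered from the FPKM. A gene length that made all 12 values whole (tolerance 0.03 fragments beside rounding) was found for 18570 of 18574 genes. These lengths equalled the GENCODE 29 exonic length for 6620 genes. The search for gene lengths and the limma fit, with and without the block, were tested on simulated data. No 2 libraries of a condition agreed within sampling noise, with a chi-square per gene of 4.23 for the closest pair, DMSO replicates 2 and 3.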

Additional observations from a re-analysis of the deposited data

Results flagged for a closer look

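On the FPKM as deposited, OSM was the only member whose difference with mitoxantrone had opposite signs without and with gilteritinib at all 3 replicate numbers. So did 2.99% of the 18574 genes tested. For OSM, Mitoxantrone minus DMSO was 0.13, 0.71 and 0.64 on the log2 scale, and Combination minus Gilteritinib was -0.04, -0.19 and -0.37. The difference between these effects was -0.69, with a limma adjusted p of 0.9997, and 0.52 with the replicate block. In replicate 1, Combination (2.45 FPKM) and Gilteritinib (2.56 FPKM) differed by less than their counting SDs (0.19 and 0.18 FPKM). After median-ratio scaling, SOCS3 also had opposite signs at each number. Its Mitoxantrone minus DMSO was then 0.34, 0.56 and 0.57. Its Combination minus DMSO (0.033, -0.080 and -0.0034) lay below its Gilteritinib minus DMSO (0.053, 0.17 and 0.11).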

How the results depend on the processing

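Without the replicate block, no alternative with all 12 libraries called a member (a pseudocount of 0.1, no filter, a mean of at least 5 FPKM, median-ratio scaling, no trend, voom), nor did leaving out any 1 library (0 members in each of the 9 comparisons). With the replicate block 1 member was called in Gilteritinib against Mitoxantrone, where PIM2 was picked and counts are not read, and no other call changed. In replicates 2 and 3 only, 5 were called in Mitoxantrone against DMSO, 5 in Combination against Mitoxantrone, 3 in Gilteritinib against Mitoxantrone, 2 with gilteritinib present, 2 with mitoxantrone present and 4 for the interaction. With voom and the block (added once the data had been seen) the counts were 4, 3, 4, 0, 1 and 0 in the same order. These counts include PIM2, and each of these contrasts holds Mitoxantrone or Gilteritinib libraries by which it was picked. SOCS1, SOCS3 and OSM have no value under a mean of at least 5 FPKM. The cause of these changes was not tested.

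Differences that changed sign, none of them called without the block in all 12 libraries, were as follows on the log2 scale. Under median-ratio scaling, the value was in Combination against DMSO 0.0039 for CISH, and in Gilteritinib against Mitoxantrone 0.036 for PIM3, 0.013 for STAT5B, and in Combination against Mitoxantrone 0.025 for PIM3, and in Combination against Gilteritinib -0.011 for PIM3, -0.017 for STAT5B, and with gilteritinib present against absent 0.032 for STAT5B. In replicates 2 and 3 only, it was in Gilteritinib against DMSO 0.12 for PIM1, 0.0010 for PIM2, -0.12 for STAT5A, -0.013 for STAT5B, and in Mitoxantrone against DMSO 0.0069 for SOCS2, and in Combination against DMSO 0.076 for CISH, -0.13 for STAT5A, -0.0017 for STAT5B, 0.053 for OSM, and in Combination against Gilteritinib -0.10 for SOCS1, 0.013 for SOCS2, -0.0087 for STAT5A, and with mitoxantrone present against absent 0.010 for SOCS2, and in the interaction of the drugs 0.0065 for SOCS2. With voom and the replicate block, it was in Combination against DMSO 0.0053 for CISH. Leaving out 1 library at a time, the range was in Gilteritinib against DMSO -0.85 to 0.66 for PIM1, -0.31 to 0.25 for PIM2, -0.14 to 0.44 for CISH, -0.12 to 0.31 for SOCS3, -0.069 to 0.058 for STAT5A, -0.091 to 0.098 for STAT5B, -0.054 to 0.51 for OSM. It was in Mitoxantrone against DMSO -0.068 to 0.042 for SOCS2, -0.012 to 0.18 for STAT5B. It was in Combination against DMSO -0.90 to 0.47 for PIM1, -0.23 to 0.26 for PIM2, -0.17 to 0.24 for CISH, -0.22 to 0.14 for SOCS3, -0.044 to 0.13 for STAT5A, -0.067 to 0.12 for STAT5B, -0.21 to 0.23 for OSM. It was in Gilteritinib against Mitoxantrone -1.56 to 0.0051 for PIM1, -0.68 to 0.020 for OSM. It was in Combination against Mitoxantrone -0.080 to 0.017 for PIM3, -0.21 to 0.0054 for SOCS2, -0.13 to 0.010 for STAT5B. It was in Combination against Gilteritinib -1.02 to 0.78 for PIM1, -0.23 to 0.32 for PIM2, -0.45 to 0.17 for CISH, -0.021 to 0.22 for SOCS1, -0.11 to 0.11 for SOCS2, -0.33 to 0.068 for SOCS3, -0.057 to 0.12 for STAT5A, -0.053 to 0.089 for STAT5B, -0.54 to 0.059 for OSM. It was with gilteritinib present against absent -0.073 to 0.022 for STAT5B. It was with mitoxantrone present against absent -0.18 to 0.72 for PIM1, -0.061 to 0.053 for SOCS2, -0.024 to 0.33 for OSM. It was in the interaction of the drugs -1.68 to 0.12 for PIM1, -0.11 to 0.12 for SOCS2, -0.15 to 0.036 for STAT5B. PIM1 without Gilteritinib replicate 1 gave 0.0051 in Gilteritinib against Mitoxantrone.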
